A study of Mus musculus with 6 samples.

Results

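Genes that mark the resident macrophages of the heart, with the 3 genes of complement C1q, were measured in the left ventricle of obese mice given the agent that the labels call Lira or placebo. The members are C1qa, C1qb, C1qc, Csf1r, Cd68, Mrc1, Cd163, Mpeg1, Lyz1 and Lyz2, chosen by gene symbol in the array's probe-to-gene table. That gives 10 of 18193 named genes and 16 of 45101 probe sets, a probe set being the group of short DNA probes that reads one transcript. The 6 mice were C57BL/6 males aged 6 months, an inbred strain that grows obese on fat-rich food, and were fed a high fat diet for 16 weeks, and both groups share strain, sex, age and diet. One group received Lira (3 mice) and the other placebo (3 mice), with 1 array per heart. The labels give neither the dose nor the duration of treatment. The submitters' design mentions 10 mice, of which the 6 with arrays were used here.

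Macrophages are phagocytes that live in the myocardium between cardiomyocytes, where they clear dying cells and debris. They depend on the receptor Csf1r and its ligands Csf1 and Il34, and in most tissues they are a main source of C1q. C1q is a hexameric protein built from the A, B and C chains, which the genes C1qa, C1qb and C1qc encode. It binds antibody complexes and apoptotic cells and, with the proteases C1r and C1s, starts the classical complement pathway.

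Signals are linear fluorescence units, scaled by the authors so that the 2% trimmed mean of every array is 150, with array medians of 28.6 to 39.6. Precision is limited by how few arrays there are, and the labels name no batch. One protocol field mentions blood, while the description of every sample names the left ventricle. The ventricular source was checked on 10 cardiomyocyte markers, whose signals summed to 230646 to 285711 on the Lira arrays and 233867 to 245704 on the placebo arrays. Of 8 red blood cell markers 5 had a probe set under their own name, and 3 of these passed the filter on low values. The 3 summed to 39.9 to 82.8 on Lira arrays and 76.6 to 126 on placebo arrays. The globin genes Hbb-bt and Hba-a1 were not among them, so this is a weak check for blood.

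All 10 genes passed the filter on low values on their brightest probe set, and all 10 had a higher mean on the log2 scale with Lira, yet 0 of the 10 differences passed an adjusted p of 0.05 in limma with Benjamini-Hochberg adjustment over 12736 genes. Over all genes tested, 51.9% had a higher mean with Lira and 0.055% passed the adjusted threshold, in either direction. At an unadjusted p under 0.05, 3 of the 10 genes were counted, namely Lyz1, C1qc and Mpeg1, all higher with Lira, against 2.91% of all genes in that direction. That count was 0 without Lira replicate 1 and 1 without placebo replicate 2. Over all 12736 genes, in either direction, it was 767 with all arrays, 688 without Lira replicate 1 and 678 without placebo replicate 2. The median log2 difference, Lira minus placebo, was 0.24 over the 10 genes, with a range of 0.06 to 0.42, and 0.01 over all genes. Log2 differences here are on the log2(signal + 16) scale, on which dim genes change less than they do in linear signal. In bulk tissue, more macrophages and more RNA per macrophage cannot be told apart. The 10 genes share the same 6 hearts, so they are not 10 separate observations. They varied together in part, with a median Pearson r of 0.55 over their 45 pairs.

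**Figure D1:**
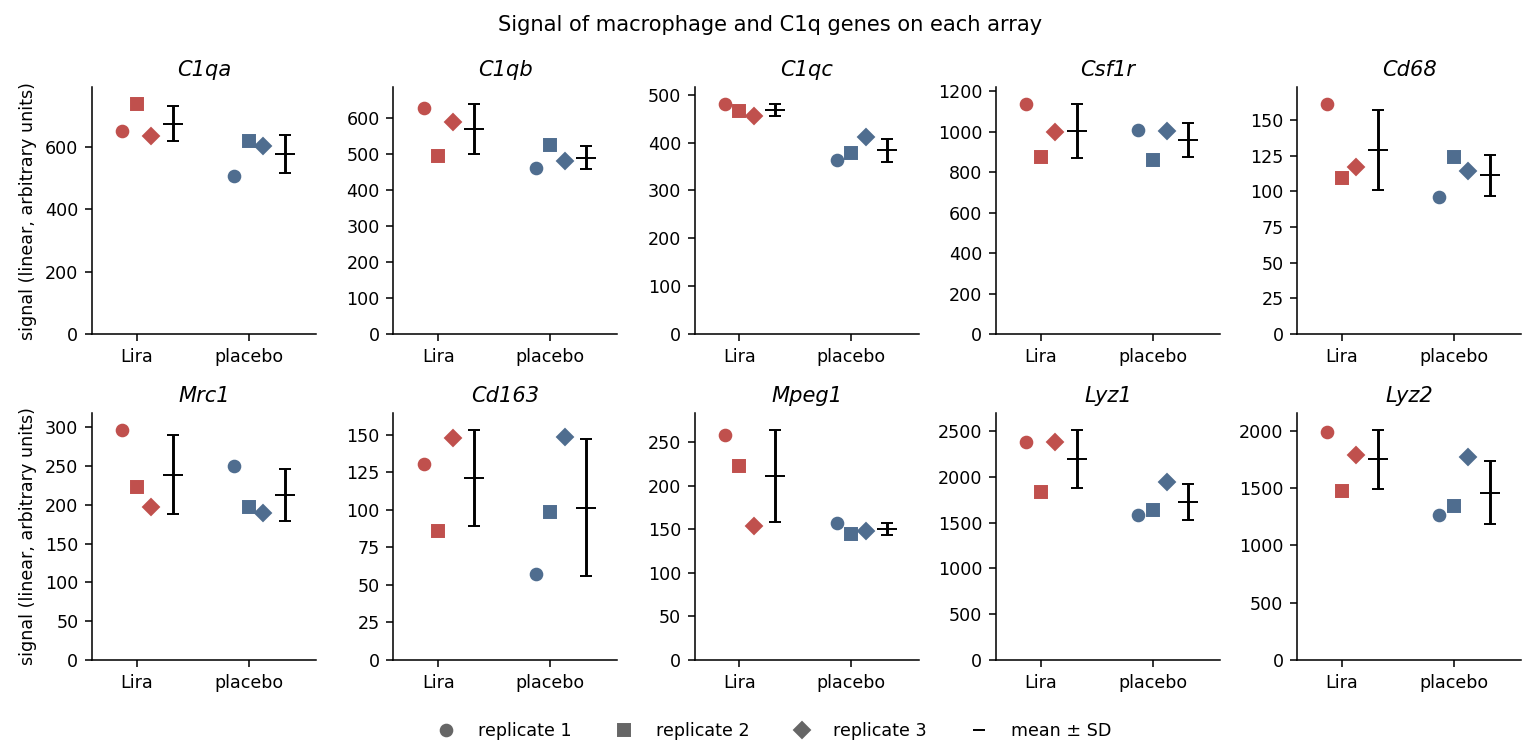
Linear signal (arbitrary units) of the brightest probe set of each of the 10 genes, with 1 point per array, marker shape for the replicate number, and the group mean ± SD (n = 3 each) beside the points. The Lira points lie above all placebo points for C1qa and C1qc and overlap them for the other 8 genes.

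C1qa encodes the A chain of C1q. Its signals were 649.8, 737 and 635 in Lira hearts, against 507, 619.8 and 604 in placebo hearts. Every Lira array lay above every placebo array, with the closest pair at 635 in Lira replicate 3 and 619.8 in placebo replicate 2. The group means were 674 ± 55.4 with Lira and 577 ± 61.1 with placebo (SD, n = 3 each), a log2 difference of 0.22 ± 0.11 (SE; adjusted p = 0.84, limma), and 0.13 without placebo replicate 1. C1qc, the gene of the C chain, gave 481, 467 and 455 in Lira hearts, against 363, 377 and 411 in placebo hearts. These groups did not overlap either, and the spread among the Lira hearts was narrow, with means of 468 ± 12.7 with Lira and 384 ± 24.5 with placebo (SD, n = 3 each). The log2 difference was 0.28 ± 0.11 with a 95% interval of 0.05 to 0.51, at an unadjusted p of 0.022 and an adjusted p of 0.75 in limma. A complete separation with Lira above placebo was found in 5.98% of all genes tested, and in 2 of the 10 genes here.

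C1qb, the gene of the B chain, has 3 probe sets that did not give one answer. The brightest, 1417063_at, read 627, 494 and 589.7 in Lira hearts, against 462, 525 and 481 in placebo hearts. Lira replicates 1 and 3 stood above the placebo range and Lira replicate 2 lay inside it, and the log2 difference was 0.21 ± 0.12 (adjusted p = 0.86, limma). Probe set 1437726_x_at read 412, 371 and 405 in Lira hearts, against 264, 395 and 443 in placebo hearts. Here placebo replicate 3 was the highest array and placebo replicate 1 the lowest, with a log2 difference of 0.13 ± 0.16. The third, 1434366_x_at, had the other sign at -0.07 ± 0.17, with means of 253 ± 31.5 with Lira and 270.0 ± 62.9 with placebo. The suffix _x_at marks probe sets in which some probes match other transcripts too. Across the 6 arrays, which share the group difference, both _x_at sets followed each other with a Pearson r of 0.83 and followed 1417063_at with 0.51 for 1437726_x_at and 0.25 for 1434366_x_at.

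The 3 C1q genes lie side by side on chromosome 4 with no other annotated gene between them in the mouse assembly GRCm38.p6. The 250 bases before the transcription start, from RefSeq, were available here for C1qb and C1qc. They are shown because these neighbours both had higher mean signals in Lira hearts. Capitals mark the motif GAGGAA or, on the other strand, TTCCTC, the core bound by PU.1, the ETS factor of myeloid cells. The windows are chr4:136886201-136886450 for C1qb and chr4:136892915-136893164 for C1qc, both on the minus strand and written 5′ to 3′.
C1qb: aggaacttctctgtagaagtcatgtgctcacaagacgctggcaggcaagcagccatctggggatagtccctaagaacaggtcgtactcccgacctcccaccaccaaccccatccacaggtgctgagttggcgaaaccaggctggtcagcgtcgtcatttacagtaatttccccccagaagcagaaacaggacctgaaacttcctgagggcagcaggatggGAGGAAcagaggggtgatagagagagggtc
C1qc: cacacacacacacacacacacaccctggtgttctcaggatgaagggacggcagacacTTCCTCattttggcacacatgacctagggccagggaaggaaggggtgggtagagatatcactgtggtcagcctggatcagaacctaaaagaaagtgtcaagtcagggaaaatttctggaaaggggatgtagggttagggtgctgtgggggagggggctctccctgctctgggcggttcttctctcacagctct
The match begins 30 bases before the start in C1qb, on the printed strand, and 193 bases before the start in C1qc, on the other strand. Promoters of 8 of the 10 genes were used, without C1qa, which had no window, and Csf1r, which was left out by choice. Of these 8, 4 held the motif on either strand (C1qb, C1qc, Cd68 and Mrc1, the last with 3 matches). Among 32851 RefSeq promoter windows of the same length, 23.3% did. A match of these letters is a description of the sequence and no evidence of binding. Aligned end to end, the C1qb and C1qc windows were identical at 51.5% of aligned bases, with 42 gap bases that this share leaves out.

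Lysozymes are enzymes that cut bacterial cell walls. In the mouse, Lyz2 is the form of macrophages and other myeloid cells, and Lyz1 is best known from the Paneth cells of the gut. Lyz2 signals were 1984, 1475 and 1788 in Lira hearts, against 1263, 1343 and 1771 in placebo hearts. Lira replicates 1 and 3 were the highest arrays, but placebo replicate 3 exceeded Lira replicate 2, so the groups overlapped. Means were 1749 ± 257 with Lira and 1459 ± 273 with placebo (SD, n = 3 each), a log2 difference of 0.26 ± 0.13 (adjusted p = 0.84, limma). It was 0.17 without Lira replicate 1, 0.17 without placebo replicate 1 and 0.41 without placebo replicate 3.

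The brightest Lyz1 probe set, 1436996_x_at, read 2381, 1834 and 2376 in Lira hearts, against 1581, 1637 and 1946 in placebo hearts. The 6 arrays stood in the same order as for Lyz2, with a Pearson r of 0.94 between the log2 values over the 6 arrays. The log2 difference was 0.34 ± 0.12 with a 95% interval of 0.09 to 0.60, the smallest p of the 10 genes at 0.011 unadjusted and 0.64 adjusted in limma. The other Lyz1 probe sets did not show it. Probe set 1439426_x_at read 719.8, 541 and 583 in Lira hearts, against 1020.0, 412 and 714 in placebo hearts, with the highest and the lowest value both among placebo hearts and a log2 difference of -0.13 ± 0.24. Probe set 1450822_at was dim, at 8.67 on average with Lira and 8.20 with placebo, and was the 1 probe set of the 16 that did not pass the filter. The log2 values of Lyz2 followed 1439426_x_at with an r of 0.02 and 1450822_at with an r of -0.26. Whether 1436996_x_at reads Lyz1 or its close relative Lyz2 was not tested, and its values are uncertain as a measure of Lyz1.

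Lyz1 and Lyz2 are neighbours on chromosome 10 and their promoters are alike. The 250 bases before the start are shown for both because the signals of the pair followed each other across the arrays. Capitals mark the run of 50 bases that ends at the start and is identical in both. The RefSeq windows (GRCm38.p6) are chr10:117292869-117293118 for Lyz1 and chr10:117282273-117282522 for Lyz2, both on the minus strand.
Lyz1: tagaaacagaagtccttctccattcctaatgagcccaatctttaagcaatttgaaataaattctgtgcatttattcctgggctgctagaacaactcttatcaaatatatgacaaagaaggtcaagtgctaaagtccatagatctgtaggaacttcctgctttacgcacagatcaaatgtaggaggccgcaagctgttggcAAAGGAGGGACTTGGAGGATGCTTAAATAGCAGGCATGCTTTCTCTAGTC
Lyz2: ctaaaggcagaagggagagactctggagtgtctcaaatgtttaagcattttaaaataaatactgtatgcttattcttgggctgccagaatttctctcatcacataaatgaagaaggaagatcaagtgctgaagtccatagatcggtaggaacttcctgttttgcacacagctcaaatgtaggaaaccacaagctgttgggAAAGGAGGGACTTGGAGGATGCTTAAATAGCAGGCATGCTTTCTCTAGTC
Aligned end to end, the windows were identical at 80.6% of aligned bases, with 48 mismatches and 4 gap bases. Neither held GAGGAA on either strand. These are promoter bases, and the array's probes, which read the transcripts, were not compared here.

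Mpeg1 encodes perforin-2, a pore-forming protein that macrophages turn on engulfed bacteria. Its signals were 258, 222 and 153 in Lira hearts, against 157, 145 and 148 in placebo hearts. The difference rested on Lira replicates 1 and 2, since Lira replicate 3 lay below placebo replicate 1 and the placebo arrays were close together. Means were 211 ± 52.9 with Lira and 150.1 ± 6.48 with placebo (SD, n = 3 each), and the log2 difference of 0.42 ± 0.17 was the largest of the 10 genes (95% interval 0.06 to 0.79, unadjusted p = 0.026, adjusted p = 0.75 in limma). Without Lira replicate 1 it was 0.27, and without Lira replicate 3 it was 0.62.

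Csf1r, the receptor tyrosine kinase that macrophages need to survive, had the smallest difference of the 10 genes. Its brightest probe set, 1419872_at, read 1137, 874 and 999 in Lira hearts, against 1008, 861 and 1005 in placebo hearts. Lira replicate 1 was the highest array, and the other 5 arrays of both groups overlapped, with a log2 difference of 0.06 ± 0.11 and a 95% interval of -0.18 to 0.31 (adjusted p = 0.97, limma). Probe set 1419873_s_at gave -0.02 ± 0.12 and probe set 1423593_a_at 0.19 ± 0.16. The first of these was lowest in Lira replicate 2 and the second was highest there. Without Lira replicate 1 the difference on the brightest probe set was -0.03, and without placebo replicate 2 it was -0.01.

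**Figure D2:**
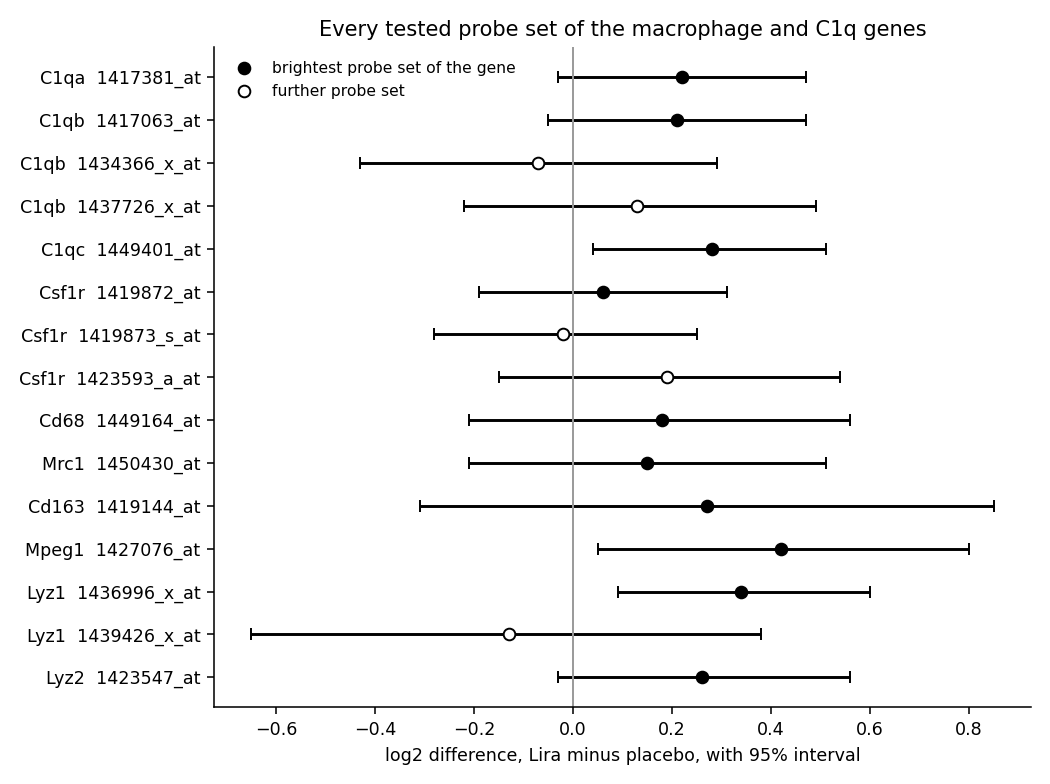
Log2 difference, Lira minus placebo, with its 95% interval for the 15 tested probe sets of the 10 genes, from the limma fit over 24462 probe sets. Filled points are each gene's brightest probe set. Of the 15 points 12 lie above 0 and 3 below (one each of C1qb, Csf1r and Lyz1), and the intervals of C1qc, Mpeg1 and the brightest Lyz1 probe set do not reach 0.

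Cd68, Mrc1 and Cd163 encode endocytic receptors or endosomal proteins. Cd68, a glycoprotein of late endosomes and lysosomes, read 161, 109 and 117 in Lira hearts, against 95.7, 124 and 114 in placebo hearts. Lira replicate 1 was alone at the top and the other 5 arrays overlapped. The log2 difference was 0.18 ± 0.17, and without Lira replicate 1 it was 0.03. Mrc1, the mannose receptor that marks resident and alternatively activated macrophages, read 297, 223 and 198 in Lira hearts, against 251, 198 and 189 in placebo hearts. Replicate 1 was the highest array within each group. The log2 difference of Mrc1 was 0.15 ± 0.16 with all arrays and -0.01 without Lira replicate 1.

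Cd163, the scavenger receptor for haemoglobin bound to haptoglobin, had the widest spread of the 10 genes. Its signals were 131, 85.8 and 148 in Lira hearts, against 57.3, 98.8 and 149 in placebo hearts. The highest and the lowest array were both placebo hearts. The log2 difference was 0.27 ± 0.26 with a 95% interval of -0.29 to 0.84, and it was -0.03 without placebo replicate 1. Adjusted p-values of Cd68, Mrc1 and Cd163 were 0.93, 0.94 and 0.93 in limma.

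Counted over every probe set, 12 of the 15 tested probe sets of these genes were higher with Lira and 3 lower, against 51.2% higher over all 24462 probe sets tested. In that fit 0 of the 15 passed an adjusted p of 0.05 in limma and 3 had an unadjusted p under 0.05, all higher with Lira. Over all probe sets, 0.00818% passed the adjusted threshold and 2.56% had an unadjusted p under 0.05 and were higher. Every Lira array lay above every placebo array in 2 of the 15, and in 5.62% of all probe sets.

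The differences were uneven between the Lira hearts. Set against the placebo mean of each gene, Lira replicate 1 was higher in 10 of 10 genes, by a mean of 0.41 on the log2 scale. Lira replicate 3 was higher in 9 of 10, by a mean of 0.20. Lira replicate 2 was higher in 7 of 10, by a mean of 0.11, and placebo replicate 3 was higher in 7 of 10 as well, also by a mean of 0.11. Placebo replicate 1 averaged -0.10 and placebo replicate 2 averaged -0.01. Lira replicate 1 was the highest of the 6 arrays in 8 of 10 genes. The lowest array was a placebo heart in 10 of 10, and it was placebo replicate 1 in 7 of them. With Lira replicate 1 left out, 8 of 10 genes were higher with Lira, the median log2 difference was 0.19 and 0 of the 10 had an unadjusted p under 0.05 in limma. Over all 12736 genes, 52.6% were higher in that fit and 688 had an unadjusted p under 0.05, against 51.9% and 767 with all arrays.

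**Figure D3:**
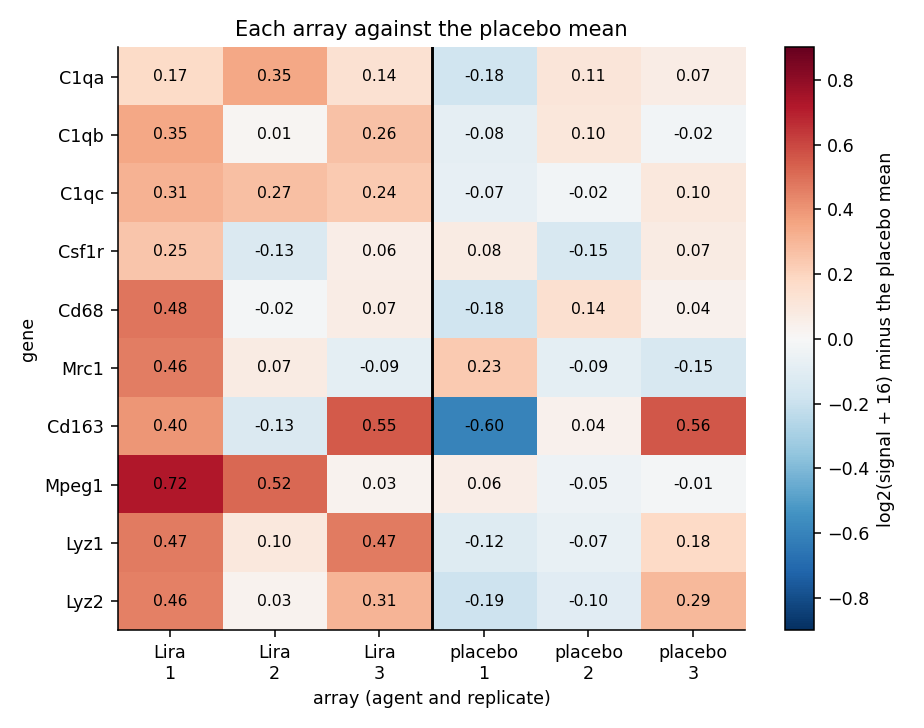
Value of each gene on each array as log2(signal + 16) minus the mean of the placebo arrays, with the Lira arrays left of the line and the placebo arrays right of it. The Lira replicate 1 column is above 0 in every row, while Lira replicate 2 is at or below 0.10 in 7 of the 10 rows.

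Among the 45 pairs of these genes, the log2 values over the 6 arrays gave a median Pearson r of 0.55, with 42 pairs above 0. The points share arrays and the group difference. The highest was 0.94 for Lyz1 with Lyz2, followed by 0.87 for Cd163 with Lyz2. The lowest were -0.30 for C1qa with Csf1r and -0.30 for Mrc1 with Cd163. With the mean of the 3 C1q genes, r was 0.81 for Lyz1, 0.73 for Lyz2, 0.71 for Cd68, 0.68 for Mpeg1, 0.61 for Cd163, 0.21 for Mrc1 and 0.19 for Csf1r. Of 7945 genes whose signal averaged at least 100, 54 had an r of at least 0.9 with the C1q mean. The 8 with the highest r were Vps72 (0.990), Add3 (0.975), Tmem186 (0.962), Hnrnpul2 (0.962), Pcp4l1 (0.959), Calr3 (0.959), Rabggtb (0.956) and Psmd3 (0.954), and none of the other 7 macrophage genes was among them. In each of these 8 every Lira array lay above every placebo array, as in C1qa and C1qc, so the likeness includes the group difference.

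The genes around Csf1r were read from a list of 12 ligands, adaptors and transcription factors, of which 11 were tested. Means were higher with Lira for 7 of them and lower for 4, the median log2 difference was 0.08, and 0 passed the adjusted threshold in limma. At an unadjusted p under 0.05, 2 were counted, both higher. For this and every later list, the shares over all genes tested were 51.9% higher with Lira and 2.91% higher at an unadjusted p under 0.05. That p was reached by 767 of the 12736 genes in either direction, 370 of them higher. Every Lira array lay above every placebo array in 5.98% of all genes tested. Csf1, the macrophage growth factor that Csf1r binds, read 199, 245 and 217 in Lira hearts, against 137, 146 and 164 in placebo hearts on its brightest probe set, with no overlap. Its log2 difference was 0.52 ± 0.14 (unadjusted p = 0.0023, adjusted p = 0.54, limma). The other 3 Csf1 probe sets gave -0.19, -0.45 and 0.03, so the probe sets of this gene disagree in sign. Csf2ra, a receptor chain for the growth factor GM-CSF, measured 114 ± 17.6 with Lira and 76.8 ± 7.88 with placebo with no overlap (log2 difference 0.48 ± 0.18, adjusted p = 0.71, limma). Its second probe set was dim, averaging 17.5 with Lira and 28.7 with placebo, and gave -0.62 ± 0.46. Tyrobp, the signalling adaptor DAP12, measured 264 ± 20.4 with Lira and 228 ± 26.9 with placebo with overlapping groups.

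Other macrophage markers differed in both directions. Of 26 listed markers 22 were tested, and 16 had a higher mean with Lira and 6 a lower one, against 51.9% higher over all genes tested. Their median log2 difference was 0.09, with 0 past the adjusted threshold in limma. At an unadjusted p under 0.05, 2 were higher and 1 lower. Among all 12736 genes, 767 were counted in either direction and 370 of these (2.91% of all genes) as higher. Adgre1, which encodes the macrophage antigen F4/80, read 167, 168 and 162 in Lira hearts, against 148, 149 and 151 in placebo hearts. Its groups did not overlap, but the log2 difference was small at 0.13 ± 0.13. Fcgr1, the high-affinity IgG receptor, differed by -0.26 ± 0.37 and Mertk, a receptor for apoptotic cells, by -0.14 ± 0.18. The cysteine protease Ctss measured 506 ± 84.2 with Lira and 407 ± 45.4 with placebo and the Fc receptor gamma chain Fcer1g 228 ± 40.7 with Lira and 178 ± 17.3 with placebo, both with overlapping groups and adjusted p of 0.81 and 0.82 in limma. The carbonyl reductase Cbr2 had the other sign, at 177, 118 and 162 in Lira hearts, against 196, 209 and 207 in placebo hearts. Every Lira array lay below every placebo array there, with a log2 difference of -0.40 ± 0.15 (adjusted p = 0.75, limma), as in 5.41% of all genes tested.

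Genes of the C1 complex, C1q-binding proteins and early complement proteases were read as one list. Of 12 listed genes 8 were tested, 4 higher and 4 lower with Lira, at a median log2 difference of 0.03, and 0 had an unadjusted p under 0.05 in limma. The proteases that join C1q measured 129 ± 16.5 with Lira and 106 ± 11.3 with placebo for C1ra and 292 ± 38.8 with Lira and 259 ± 26.8 with placebo for C1s1, each with overlapping groups. Serping1, the inhibitor that dissociates the C1 complex, measured 2236 ± 301 with Lira and 1833 ± 371 with placebo (log2 difference 0.30 ± 0.14, adjusted p = 0.82, limma). The 4 genes counted as lower were C2, the C1q-binding proteins C1qbp and Cd93, and Masp1, a protease of the lectin pathway, at log2 differences of -0.03, -0.01, -0.01 and -0.08, each smaller than its SE. Among 21 other complement genes 13 were tested, 8 higher and 5 lower with Lira, at a median of 0.10, with 0 past the adjusted threshold in limma, 1 of them at an unadjusted p under 0.05. That gene was C3ar1, the receptor for the fragment C3a. C3ar1 was dim and read 59.4, 66.3 and 71.7 in Lira hearts, against 37.9, 36.6 and 51.3 in placebo hearts, without overlap (log2 difference 0.50 ± 0.22, adjusted p = 0.81, limma). Its other 2 probe sets had the same sign, at 0.67 and 0.27, with overlapping groups. Vsig4, a complement receptor of tissue macrophages, was dim and read 31.9, 41.6 and 26.6 in Lira hearts, against 43.6, 58.9 and 50.9 in placebo hearts. Its Lira values all lay below its placebo values (log2 difference -0.45 ± 0.26, adjusted p = 0.87, limma). Cfb, the protease of the alternative pathway, was dim as well and differed by -0.57 ± 0.37.

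Genes that handle what macrophages take up were also read. Of 12 genes for scavenging haemoglobin, lipid and iron 9 were tested, 8 higher and 1 lower with Lira, against 51.9% higher over all genes. The median log2 difference was 0.19, with 0 past the adjusted threshold in limma. At an unadjusted p under 0.05, 2 were counted, both higher, against 2.91% of all genes in that direction. The lipid carrier Apoe measured 1414 ± 129 with Lira and 1175 ± 109.9 with placebo, and the iron exporter Slc40a1 576 ± 88.9 with Lira and 462 ± 64.4 with placebo, each with overlapping groups and adjusted p of 0.75 and 0.81 in limma. The biliverdin reductase Blvrb measured 161 ± 39.6 with Lira and 123 ± 22.2 with placebo. Lysosomal genes, 13 tested of 14, split into 8 with a higher and 5 with a lower mean, the median was 0.13, and 0 had an unadjusted p under 0.05 in limma on the brightest probe set. Ctsb, a lysosomal protease, differed by 0.21 ± 0.10 on its brightest probe set, the membrane protein Lamp1 by 0.18 ± 0.09 and the saposin precursor Psap by 0.17 ± 0.09. The other 3 tested Ctsb probe sets gave 0.44 with no overlap (unadjusted p = 0.011, adjusted p = 0.74, limma), 0.68 (unadjusted p = 0.038, adjusted p = 0.87) and 0.08, and a Ctsb probe set below the filter gave -0.68. The second Psap probe set gave 0.35. Of 12 inflammatory and alternative activation genes 6 were tested, 2 higher and 4 lower with Lira, at a median of -0.19, and 0 passed the adjusted threshold in limma. Socs3, an inhibitor of cytokine signalling, had the only unadjusted p under 0.05 there, at 71.3, 93.0 and 31.3 in Lira hearts, against 74.3, 129 and 140.4 in placebo hearts (log2 difference -0.73 ± 0.29, adjusted p = 0.75, limma). That value came from its brightest probe set, and the other 2 Socs3 probe sets gave -0.06 and -0.08.

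**Figure D4:**
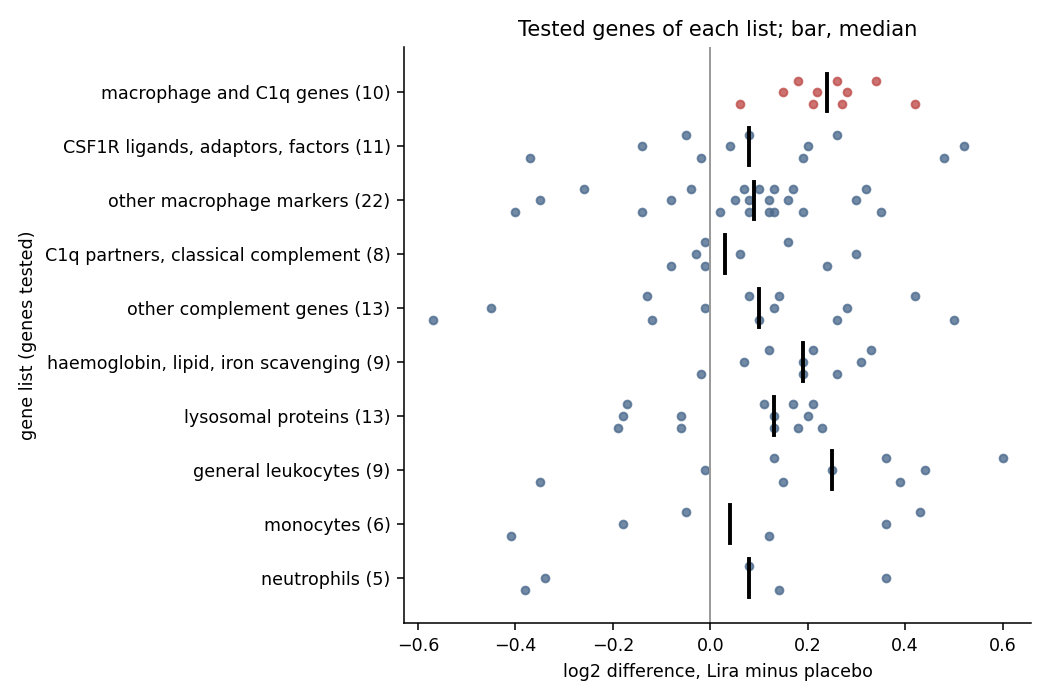
Log2 difference, Lira minus placebo, of each tested gene in 10 lists, with the number tested in brackets and a bar at the list median. The medians are 0.24 for the macrophage and C1q genes, 0.09 for other macrophage markers, 0.03 for the C1q partners, 0.25 for general leukocyte genes, 0.04 for monocyte and 0.08 for neutrophil markers.

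Markers of other cells that the tissue could hold were set beside these values, since lysozyme and some receptors are shared with other leukocytes. Of 9 general leukocyte genes 7 had a higher mean with Lira and 2 a lower one, against 51.9% higher over all genes tested. The median log2 difference of the 9 was 0.25, and 0 passed the adjusted threshold in limma. At an unadjusted p under 0.05, 2 of the 9 were counted, both higher, against 2.91% of all genes in that direction. The summed signal of the 9 ran from 843 to 1046 on Lira arrays and from 765 to 855 on placebo arrays. Ptprc, the leukocyte antigen CD45, read 142, 153 and 106 in Lira hearts, against 92.9, 103 and 104 in placebo hearts. The adhesion molecule Cd48 was dim and read 64.1, 64.5 and 65.9 in Lira hearts, against 34.5, 43.5 and 34.2 in placebo hearts. Cd52, a small surface glycoprotein of leukocytes, measured 121 ± 30.1 with Lira and 84.7 ± 14.1 with placebo, with overlapping groups. Ptprc and Cd48 did not overlap, at adjusted p of 0.82 and 0.71 in limma, and 5.98% of all genes tested were separated in that direction. Cytip, of the same list, was separated the other way, at 32.6, 45.9 and 43.0 in Lira hearts, against 65.9, 46.7 and 56.0 in placebo hearts. Its log2 difference was -0.35 ± 0.24 (adjusted p = 0.87, limma), and 5.41% of all genes tested were separated in that direction. Over the 9 leukocyte genes Lira replicate 2 stood highest, at a mean of 0.40 above placebo on the log2 scale. The mean was 0.21 for Lira replicate 1 and 0.04 for Lira replicate 3. Median signals of these arrays ran in the same order, at 39.6, 35.3 and 28.6 for Lira replicates 2, 1 and 3. Placebo replicates 1, 2 and 3 had medians of 31.9, 36.4 and 35.7, and leukocyte means of 0.04, 0.02 and -0.06. The part of the array medians in the order of the Lira hearts was not tested. The part of other leukocytes in the macrophage differences was not tested.

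Of 11 monocyte markers 6 were tested, 3 higher and 3 lower, with summed signals of 577 to 605 on Lira arrays and 561 to 605 on placebo arrays. The chemokine receptor Ccr2, which marks recruited monocytes, was dim and measured 55.1 ± 19.9 with Lira and 35.9 ± 10.6 with placebo, with overlapping groups. The proteoglycan Vcan read 84.7, 113 and 112 in Lira hearts, against 139, 161 and 125 in placebo hearts, lower with Lira without overlap (adjusted p = 0.75, limma). Of 11 neutrophil markers 5 were tested, 3 higher and 2 lower and 0 at an unadjusted p under 0.05 in limma, and they summed to 112 to 179 on Lira arrays and 137 to 169.6 on placebo arrays. Fewer than 5 markers were tested for dendritic cells (4 of 8), B cells (4 of 8), mast cells (3 of 6) and T and NK cells (2 of 12), so these lists describe little. Medians were 0.04 over 9 endothelial, 0.03 over 9 fibroblast, 0.08 over 7 smooth muscle and pericyte and 0.11 over 10 cardiomyocyte markers, and 0 genes of these lists passed the adjusted threshold in limma. At an unadjusted p under 0.05 the calcium release channel Ryr2, the proteoglycan Dcn and the smooth muscle actin Acta2 were counted as higher and the microfibril protein Mfap5 as lower. Acta2 read 3377, 1579 and 1518 in Lira hearts, against 1122, 1074 and 1391 in placebo hearts, so that it too was highest in Lira replicate 1. Its second tested probe set was dim, averaging 25.2 with Lira and 21.4 with placebo. The log2 difference there was 0.16, against 0.75 on the first. The part of Acta2 in the macrophage differences was not tested. Of 6 fat cell markers 2 were tested, and the lipase Lipe measured 200.4 ± 43.6 with Lira and 133 ± 21.5 with placebo (adjusted p = 0.64, limma).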

How the data were processed

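Total RNA of 6 ventricles was measured as biotin-labelled target on Affymetrix mouse arrays. The deposited values are linear signal intensities, and the submitters' processing notes name Affymetrix Expression Console as the tool. Its version and way of summarising probes, not given in the sources used here, are unknown. Each array's 2% trimmed mean is 150, as checked on the values, so only changes relative to other genes can be seen. No detection calls were used. Groups follow the agent named in each label.

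Control probe sets (64) were left out. Of the 45101 probe sets 34958 had 1 gene in the name table, 932 had several and were not used, and 99.42% of the former matched RefSeq symbols (GRCm38.p6) by gene ID. Each gene was represented by its brightest probe set, signals were converted to log2(signal + 16), and genes in the lowest 30% by mean signal were dropped. The remaining 12736 genes averaged at least 23.7 signal units. A second fit used every probe set with 1 gene, with the same filter. limma 3.58.1 under R 4.3.3 compared Lira with placebo (lmFit and eBayes with a mean-variance trend, two-sided tests, Benjamini-Hochberg at 0.05). Its p-values test each difference against the spread between these mice, with each gene's variance drawn towards a trend over all genes. Promoters came from RefSeq and were aligned with Biopython 1.88.

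The members, lists, tests and alternatives were chosen with earlier results of these data known. The text names all 10 members, up to 3 genes with the smallest p of each other list described and the first 3 markers of the macrophage list. It also names the 8 genes most like the C1q mean and the 4 genes counted as lower among the C1q partners. Cytip is named as the leukocyte gene whose Lira arrays all lay below its placebo arrays. Same-numbered Lira and placebo mice were checked for pairing and deviated together with r of -0.03, 0.08 and -0.09 over 12736 genes, so the numbers were not taken as pairs. Alternatives covered normalisation, filter, pseudocount, probe set choice, variance model, a replicate block and each array left out.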

Additional observations from a re-analysis of the deposited data

How the results depend on the processing

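Under 17 alternatives 0 of the 10 genes passed an adjusted p of 0.05 in limma, and the lowest adjusted p of a gene was 0.34. Under the 16 that keep probe sets apart 0 of their probe sets passed. Of 170 gene values 166 kept their direction. The 4 that turned came from leaving out 1 array: Cd163 at -0.03 without placebo replicate 1, Mrc1 at -0.01 and Csf1r at -0.03 without Lira replicate 1, and Csf1r at -0.01 on dropping placebo replicate 2. Leaving out single arrays gave -0.03 to 0.55 for Cd163, -0.03 to 0.16 for Csf1r and -0.01 to 0.27 for Mrc1. The median log2 difference of the 10 genes was 0.20 to 0.26 in the other alternatives and 0.17 to 0.29 with single arrays left out, and the genes higher with Lira numbered 8 to 10. Of all genes tested, 49.5% to 54.2% were higher in these alternatives. Genes among the 10 at an unadjusted p under 0.05 numbered 1 without the variance trend and 0 to 4 with single arrays left out, the 0 without Lira replicate 1 and a count of 1 without placebo replicate 2. Of all 12736 genes, in either direction, 767 were counted there in the main fit and 626 to 864 with single arrays left out. The count was 688 without Lira replicate 1 and 678 without placebo replicate 2. Over all genes, 7 passed the adjusted threshold. It was passed by 0 when all probe sets of a gene were averaged (688 at an unadjusted p under 0.05), 0 without the variance trend (683) and 1 with no filter. With single arrays left out it was passed by 1 to 9, with 1, 3 and 4 on dropping Lira replicates 3, 2 and 1 and 2 on dropping placebo replicate 2. The cause was not tested. Averaged over its probe sets, Lyz1 differed by 0.07 and C1qb by 0.09. With the replicate block, 7 genes passed the adjusted threshold and 0 of the 10 did. At an unadjusted p under 0.05, 3 of the 10 were counted, against 760 of all 12736 genes. The same-numbered arrays did not each correlate best with each other.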
